A study of Caenorhabditis elegans with 51 samples.

Results

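The fbxb genes make up the F-box B family of the nematode Caenorhabditis elegans. Every gene whose name began with fbxb- in the expression tables was taken as a member, without regard to its measured level, which gave 113 members among 31383 genes. Single embryos of about 100 cells had been taken apart by hand under a confocal microscope, and each embryo was divided into cells of one lineage, recognised by a fluorescent reporter, and the remaining cells. The MS descendants (MS+) and the rest of the same embryos (MS-) came from animals carrying pCEH-51::mNG, with 7 embryos each. The D descendants (D+) and the rest (D-) came from animals carrying pFKH-2::mNG, with 7 embryos each. The Cxp descendants, which internalize (C-in), the Cxa descendants, which do not (C-out), and the rest (C-) came from animals carrying pR02D3.1::mKate2;pHLH-1::mNG, with 5 embryos each. The reporter alleles were carried by all cells of an embryo, tested and remaining alike, and each group of remaining cells still held the other lineages, so that C-, for example, contained MS and D cells. The labels give neither the number of cells collected from each embryo nor the parents the embryos came from.

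F-box proteins are the interchangeable part of the SCF ubiquitin ligases. The F-box binds a SKP1-like adaptor (the SKR proteins in C. elegans), the adaptor binds the cullin scaffold CUL-1, and the RING protein RBX-1 on the cullin brings in the ubiquitin-conjugating enzyme, so that the protein held by the rest of the F-box protein becomes ubiquitinated. The C. elegans genome holds several expanded F-box families, of which fbxa, fbxb and fbxc are the named ones, and fbxb proteins pair the F-box with an F-box associated (FBA) domain. The sources used give no substrates of single fbxb proteins, so the members below are described by their levels, their chromosomes and their neighbours. All 113 members were found in the RefSeq gene table (WBcel235), with 63 on chromosome II, 16 on V, 11 each on I and IV, 9 on III and 3 on X.

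Levels are given in RPKM, read counts scaled to gene length and to the total of the library, and a member was taken as detected above 25 RPKM. The 43 libraries held between 416394 and 3054633 gene counts. At these depths 3 counts, the most that a count of 0 allows, corresponded to 0.983 to 7.21 RPKM for a member of the median length of 999 bases, below the detection threshold in every library. This limit covers counting error only. In a dissected group, fewer cells that express a gene and less of its RNA per cell cannot be told apart.

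The labels were checked against marker genes of the lineages. Of these, ceh-51 (MS series), fkh-2 (D series) and hlh-1 (C series) were also the genes behind reporters used to pick the cells. Their levels are therefore not an independent check in those series. In MS+ embryo 4, ceh-51 made up 2445 of the 2457 RPKM of the MS list. The muscle list (hlh-1, unc-120 and hnd-1) summed to 64.3 to 7387 RPKM in D+ libraries and 61.3 to 801 RPKM in D- libraries, and the lowest D+ value was that of embryo 8, whose epidermal list (elt-1, elt-3, lin-26 and nhr-25) summed to 1225 RPKM. The same muscle list summed to 1258 to 4743 RPKM in C-in and 11.3 to 350.5 RPKM in C-out, without overlap. The epidermal list summed to 9.33 to 956 RPKM in C-in, highest in embryo 4, and to 519.8 to 1498 RPKM in C-out. In C-out embryo 1 the lists for MS, endoderm and neurons stood at 407, 702 and 1184 RPKM, so that this library held markers of several other lineages. The neural list also stood at 3030 and 1117 RPKM in C-out embryos 2 and 6, almost all of it from hlh-14. The endoderm list reached 2707 and 2964 RPKM in MS+ embryos 3 and 4, and tbx-35, an early MS marker, was at 0.89 RPKM or less in all MS+ libraries. The D marker fkh-2 stood at 346 and 230 RPKM in MS+ embryos 1 and 3 and at 420 RPKM in C-in embryo 1. D+ embryo 4 had a germ line list (pie-1, nos-2 and pgl-1) of 1000 RPKM, against 20.2 RPKM or less in the other D+ libraries, and an epidermal list of 262 RPKM. The MS list (ceh-51, tbx-35, pha-4 and tbx-2) summed to 273 to 2457 RPKM in MS+ and 4.63 to 402 RPKM in MS-, with overlap. The C list (pal-1 and vab-7) summed to 4.26 to 919.5 RPKM (median 99.7) in C-in and 1.93 to 128 RPKM (median 23.7) in C-out. In C- it summed to 76.2 to 255 RPKM (median 147). pal-1 went against the labels, at 6.4 RPKM or less in C-in and 76.2 to 253 RPKM in C-. vab-7, which the study took to be enriched in Cxp, was at 93.3 to 919.5 RPKM in C-in embryos 2, 5 and 6. It was at 1.98 RPKM or less in C-in embryos 1 and 4, 0.89 RPKM or less in C-out and 9.5 RPKM or less in C-. The counts that these libraries moved most are given below without them.

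The family was widely detected at this stage. A mean above 25 RPKM was reached by 74 members in MS+ and 97 in MS-, by 51 in D+ and 65 in D-, and by 21 for C-in, 21 for C-out and 49 for C-. As shares of the 113 members these were 65.5% in MS+ and 85.8% in MS-, 45.1% in D+ and 57.5% in D-, and 18.6% for C-in, 18.6% for C-out and 43.4% for C-. Over all 31383 genes the corresponding shares were between 12% (C-in) and 17.3% (MS-). In the other named families, the 222 fbxa genes had between 1 (C-in) and 13 (MS+ and C-) members above the threshold, and the 55 fbxc genes between 9 (C-in) and 29 (MS-). By group means the fbxb share was above that of all genes in each of the 7 groups. By group medians it was 3.54% in C-in, against 5.62% of all genes, and 3.54% in C-out, against 7.68% of all genes, so that the order turned in these groups. In the other 5 groups it stayed above, as in MS+ with 19.5% of members and 6.98% of all genes.

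Across the 7 groups, 100 of the 113 members passed 25 RPKM in at least 1 group. Of these, 9 passed in all 7 groups, namely fbxb-26, fbxb-37, fbxb-41, fbxb-45, fbxb-66, fbxb-69, fbxb-75, fbxb-77 and fbxb-88. Another 18 passed only in the MS series (MS+, MS- or both), and 13 passed nowhere. Among the detected members the highest group mean was in MS- for 50, in MS+ for 26, in D+ for 14, in C-in and C- for 4 each, in D- for 2 and in C-out for none. Between the lineages, 42 members passed in both MS+ and D+, 32 in MS+ but not D+, and 9 in D+ but not MS+. The 3 series came from different strains and embryos, which cannot be told apart from lineage in any count between series. The remaining cells also differed between series, with 97 members above threshold in MS-, 65 in D- and 49 in C-. Over all genes 5435, 5310 and 5380 passed in these groups. The 3 internalizing groups MS+, D+ and C-in shared 18 members above threshold, and 8 of these (fbxb-13, fbxb-24, fbxb-42, fbxb-43, fbxb-44, fbxb-72, fbxb-78 and fbxb-104) were below it in C-out. Over all genes 2473 passed in these 3 groups and 412 of them were below in C-out (16.7%, against 44.4% of the members). Of the 8 members, fbxb-24, fbxb-42, fbxb-72, fbxb-78 and fbxb-104 had 1 C-in library above 25 RPKM, and without embryo 1 of the C series fbxb-24, fbxb-72 and fbxb-104 were no longer among them. Without that embryo 11 members passed in the 3 groups and 10 of these were below threshold in C-out, against 24.3% of all genes.

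The count in single libraries was lower than the count of group means and varied widely. MS+ libraries held 14 to 66 members above 25 RPKM (median 28), against 26 to 97 (median 86) in MS- libraries. D+ libraries held 6 to 30 (median 21), against 9 to 66 (median 41) in D- libraries. C-in libraries held 26, 4, 3, 8 and 5 members and C-out libraries 45, 5, 3, 10 and 4, against 39, 43, 24, 38 and 20 in C- libraries, in the order of embryos 1, 2, 4, 5 and 6. Most small dissected groups thus held few members and the remaining cells many, and the exceptions in the C series were C-in embryo 1 and C-out embryo 1. Without embryo 1, the number of members with a mean above 25 RPKM was 11 in C-in and 8 in C-out. The number of all genes above 25 RPKM moved in the same direction, with medians of 2811 in MS+ and 5116 in MS- libraries, 2054 in D+ and 4280 in D- libraries, and 2316 for C-in, 2672 for C-out and 4969 for C- libraries.

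**Figure D1:**
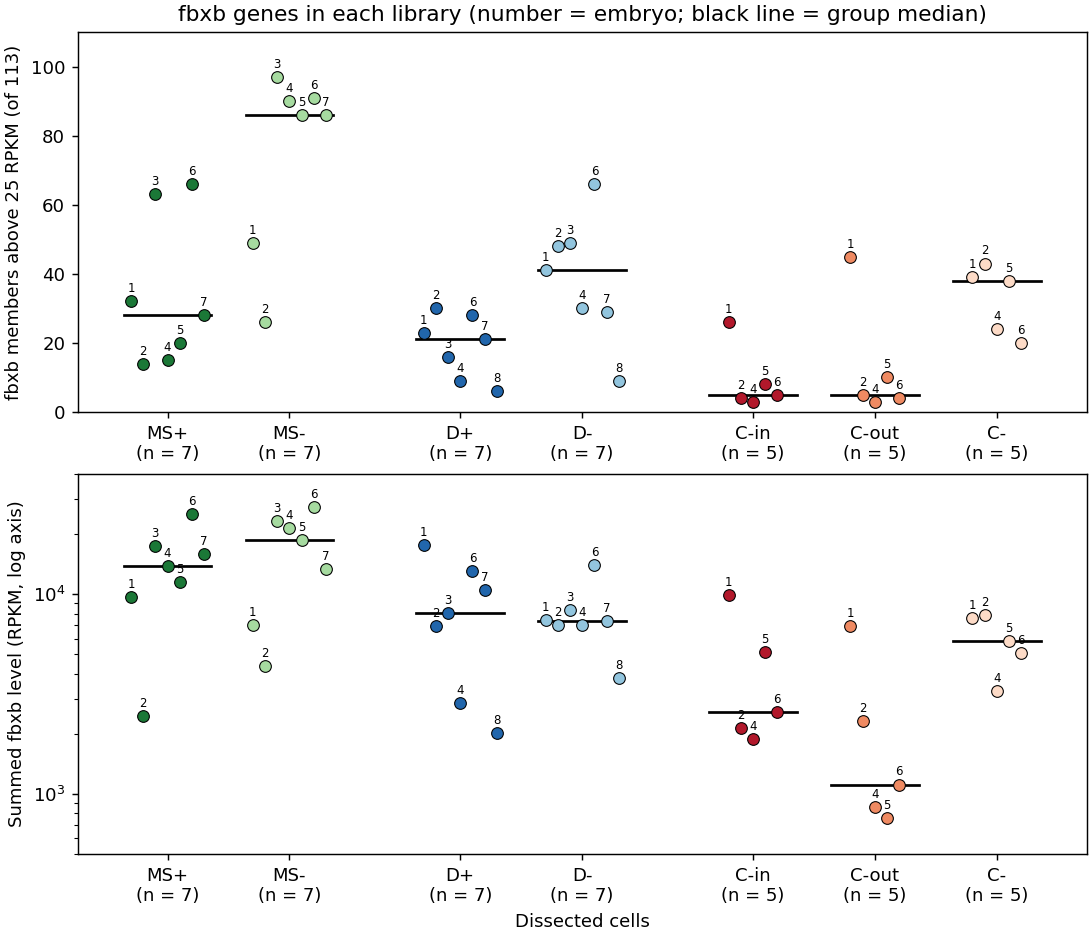
Number of fbxb members above 25 RPKM (upper panel) and the summed fbxb level in RPKM on a log axis (lower panel) in each library. Each point is one library, the number beside it is the embryo, and black lines are group medians; MS- embryos 3 to 7 lie between 86 and 97 members, and C-out embryo 1 lies at 45 members while the other C-out libraries lie between 3 and 10.

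The summed level of the family was lower than in the remaining cells in most embryos, with a wide spread. The summed fbxb level averaged 13761 ± 7070 RPKM in MS+ and 16547 ± 8575 RPKM in MS- (SD, n = 7 each), and the MS+ sum was the higher one in 2 of 7 embryos. It averaged 8744 ± 5552 RPKM in D+ and 7839 ± 3056 RPKM in D- (SD, n = 7 each), with the D+ sum the higher one in 2 of 7 embryos. In both series the difference of the mean log2 sums, -0.28 for MS and -0.08 for D, was below the pooled SD of 1.03 in the MS series and 0.897 in the D series. The C groups were lower, with 4343 ± 3402 RPKM for C-in, 2392 ± 2600 RPKM for C-out and 5931 ± 1898 RPKM in C- (SD, n = 5 each). C-in exceeded C- in 1 of 5 embryos, with a log2 difference of -0.69 against a pooled SD of 0.802. C-out was below C- in 5 of 5 embryos, with a log2 difference of -1.79 against a pooled SD of 1.00, whereas C-in exceeded C-out in 4 of 5 embryos by 1.10 on average, within the pooled SD of 1.18.

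Sums also varied between embryos. Embryo 2 gave the lowest sum in both MS+ (2443 RPKM) and MS- (4383 RPKM), and embryo 6 the highest in both (25251 RPKM in MS+ and 27290 RPKM in MS-). In the D series, embryo 8 was lowest in both groups, with 2028 RPKM in D+ and 3825 RPKM in D-. The family took between 0.306% and 2.84% of all counts in MS+ libraries, against 0.519% to 3.09% in MS- libraries. The corresponding shares were 0.212% to 1.91% in D+ and 0.438% to 1.66% in D-. They were 0.219% to 1.15% for C-in, 0.0908% to 0.770% for C-out and 0.371% to 0.882% in C-.

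In many of the dissected groups a few members held most of the family level. The members that together held at least 50% of the summed level numbered 8 in the median MS+ library and 22 in the median MS- library, 5 in D+ and 10 in D-, and 2 for C-in, 2 for C-out and 8 for C-. The number was higher in MS+ embryos 3 and 6, with 17 and 18, and in C-out embryos 1 and 5, with 8 each. In C-in embryos 2, 4 and 6 the top 3 members held 88.3%, 95.6% and 92.7% of the sum. The leading member was fbxb-10 in C-in embryo 1 (1315 RPKM), fbxb-45 in embryos 2 and 4 (954 and 735 RPKM), fbxb-88 in embryo 5 (1400.0 RPKM) and fbxb-75 in embryo 6 (1183 RPKM). In D+ the leading members were fbxb-35, fbxb-88, fbxb-104, fbxb-72, fbxb-7, fbxb-104 and fbxb-57 in embryos 1, 2, 3, 4, 6, 7 and 8. One member led more often elsewhere, fbxb-66, which was highest in MS+ embryos 1, 4, 5 and 7 and in C-out embryos 1, 2 and 5. Its level in C-out embryo 5 was 85.9 RPKM.

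Members with a group mean above 25 RPKM were often high in some libraries of the group and nearly absent in others. A single high library could bring a member past this mean, so the selection itself favours such values. The same shares were not computed for all genes, so the pattern is not shown to be particular to the family. Of the 105 values of the 21 members with a C-in mean above 25 RPKM, 58.1% were under 10 RPKM, 29.5% over 100 RPKM and 12.4% between. In MS+ the same shares were 52.7%, 35.1% and 12.2% of 518 values, and in D+ 55.5%, 28.0% and 16.5% of 357 values. In the remaining cells more of the values were intermediate, with 23.9% between 10 and 100 RPKM in MS-, 24.0% in D- and 23.3% in C-, although C-out, also a small group, had 27.6%. One library held a median of 95.7% of a detected member's summed C-in level, against 80.9% in C-out and 48.9% in C-. In MS+ the highest library held a median of 56.6% of a detected member's level, against 29.9% in MS-. In D+ it held 79.4%, against 48.1% in D-. Members with a group mean above the threshold had only 1 library above it in 12 of 21 cases in C-in, 19 of 51 in D+ and 10 of 74 in MS+, and in none of 97 in MS-. Only 3 members in MS+, 1 in D+, 1 in C-in and none in C-out passed 25 RPKM in every library of the group, against 13 in MS-, 5 in D- and 9 in C-.

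**Figure D2:**
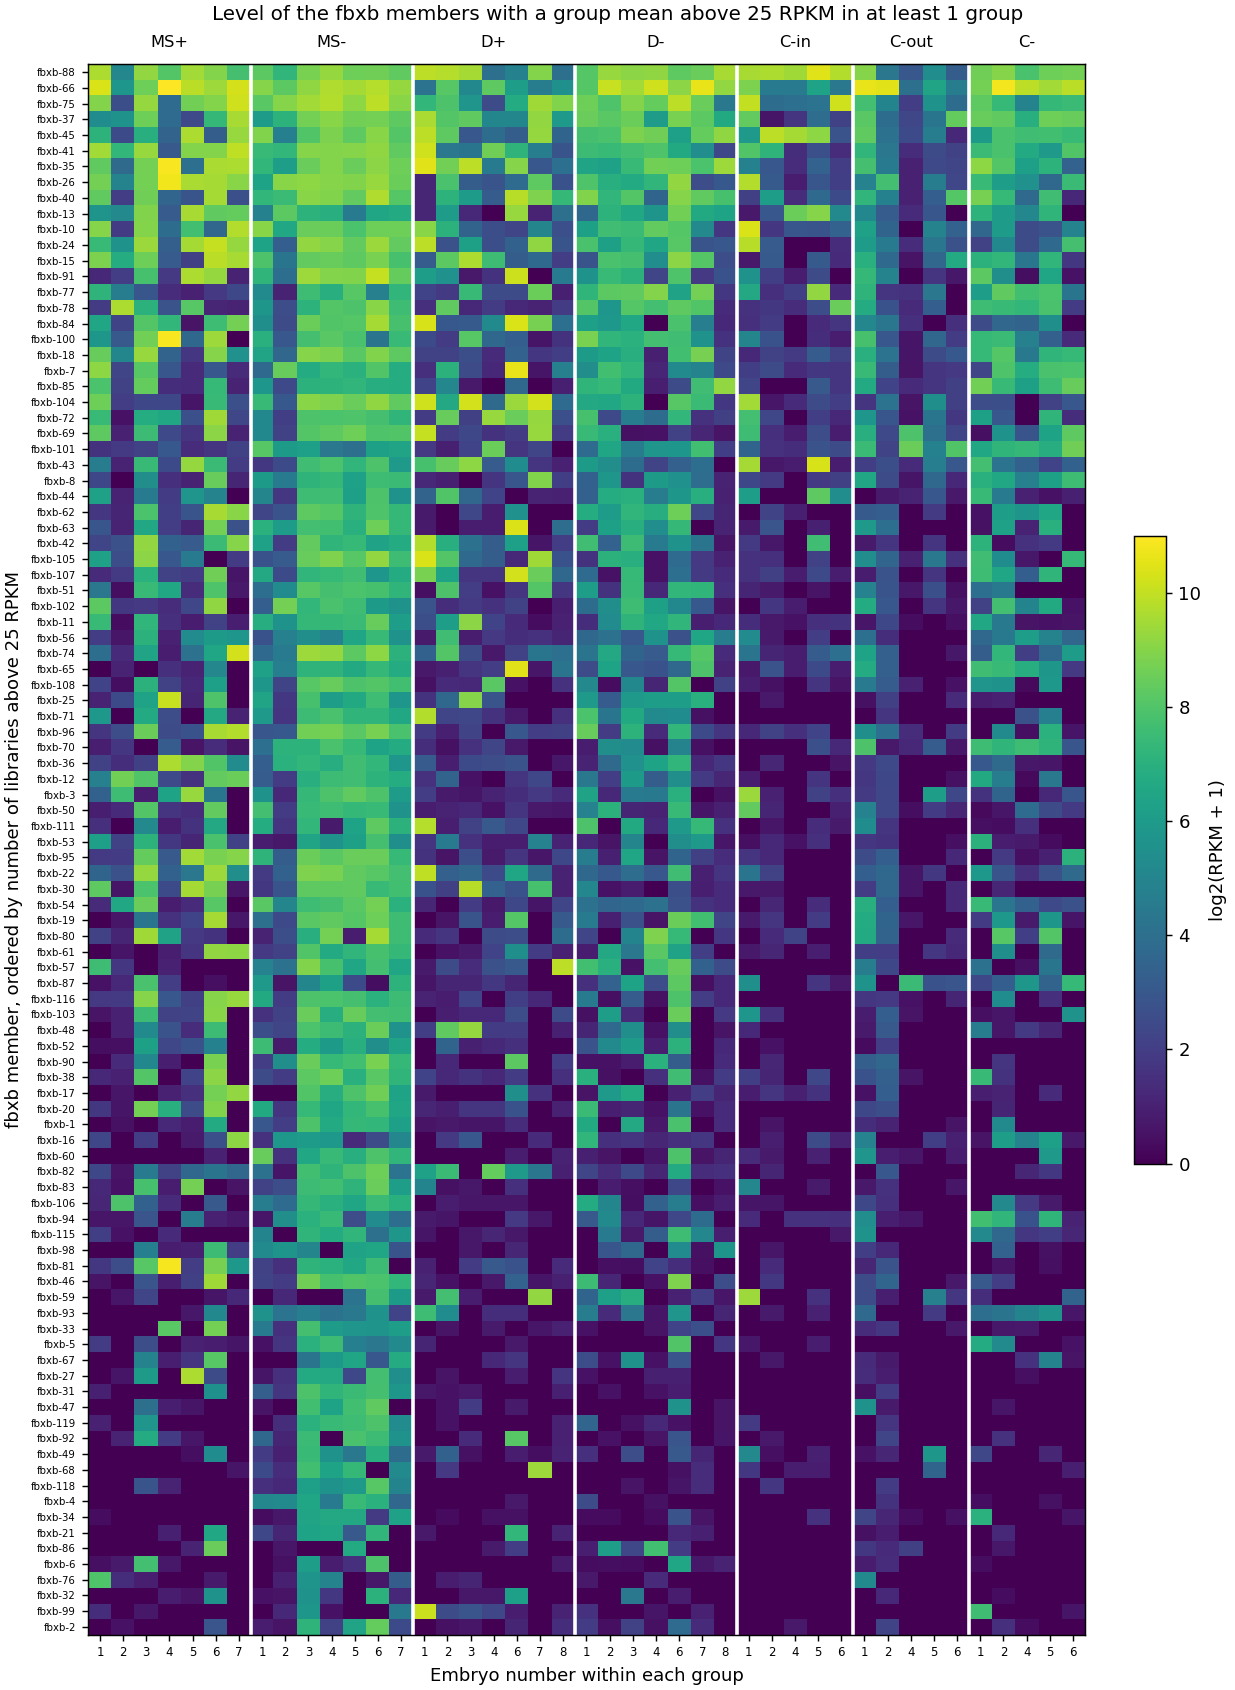
Level of the 100 fbxb members with a mean above 25 RPKM in at least 1 group (rows) in the 43 libraries (columns, grouped and numbered by embryo), as log2(RPKM + 1). The MS- columns of embryos 3 to 7 are filled over most rows, whereas C-in, C-out and many D+ columns show a few bright cells in rows that differ between embryos.

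The 2 members detected in most libraries were fbxb-88 and fbxb-66, above 25 RPKM in 38 and 36 of the 43 libraries. They had opposite patterns in the C series, described below. The next were fbxb-75 and fbxb-37 (34 libraries each), fbxb-45 (31) and fbxb-41 (30). By group mean the 12 highest members were fbxb-66, fbxb-88, fbxb-26, fbxb-75, fbxb-104, fbxb-35, fbxb-41, fbxb-24, fbxb-45, fbxb-91, fbxb-84 and fbxb-100.

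Differences between the cells of a lineage and the remaining cells were tested by the quasi-likelihood method of edgeR. Genes entered the test if the number of libraries above 25 RPKM reached the size of the smaller group. Benjamini-Hochberg adjustment ran over all genes tested, and a gene was called at an adjusted p under 0.05. Within a group each library came from a different embryo, so that p-values measure the spread between embryos. Libraries of the same number in a series came from the same embryo, which the test did not use, and fits with the embryo as a block are given where they change a call. Lineage bias was also described by the ratio of the group means after adding 25 RPKM to each, for members with a mean above 25 RPKM in either group. Between 4 and 66 members passed the filter in these comparisons. The ratios, which have no test, cover between 32 and 99 members.

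In the MS series, more members were lower in MS+ than were higher. Of 99 members above 25 RPKM in either group, 34 (34.3%) had a ratio of 0.5 or less and 3 (3.03%) a ratio of 2 or more, where all genes above threshold had 18.9% and 8.35%. The 3 higher members were fbxb-81 (ratio 3.81), fbxb-100 (2.63) and fbxb-13 (2.20). Without embryo 4 these ratios were 1.62, 1.42 and 2.54. Without embryo 3, 8 members had a ratio of 2 or more and 35 a ratio of 0.5 or less, and without embryo 4 there were 3 and 30. Of the 99 members, 19 had a ratio of 0.5 or less and were lower in MS+ in all 7 embryos, as were 8.54% of all genes above threshold. Among those with a ratio of 0.5 or less, these were 19 of 34 members and 513 of 1135 genes. The groups did not overlap for 4 members, all lower in MS+ (fbxb-4, fbxb-60, fbxb-70 and fbxb-101), against 1.93% of all genes above threshold with groups apart in either direction.

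Among the members that were low in MS+, fbxb-4 had no count in any of the 7 MS+ libraries, against 11.3 to 167 RPKM (median 36.2) in MS-. With 3 counts allowed in each MS+ library, or 1.69 RPKM, the MS- mean of 69.9 RPKM was 41.3-fold higher. This figure allows for counting error only and leaves out the spread between MS- embryos. Outside the MS series fbxb-4 stayed at or below 4.96 RPKM in every library, so that MS- was the one group in which it was detected. fbxb-60 ranged from 0 to 1.03 RPKM in MS+ and from 1.99 to 348 RPKM (median 152) in MS-, where embryo 2 was the low one. fbxb-70 ranged from 0 to 8.12 RPKM in MS+ and from 15.2 to 226 RPKM (median 139) in MS-. fbxb-101 ranged from 1.65 to 7.19 RPKM in MS+ and from 15.8 to 281 RPKM (median 73.9) in MS-. These 4 members were low in MS+ in all 7 embryos, and none of them was above 25 RPKM in enough libraries to enter the test. When edgeR was run without that filter, fbxb-4 and fbxb-60 were called and fbxb-70 and fbxb-101 were not. The share of all genes called by that fit was not computed.

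The members with high ratios owed them to some of the embryos. fbxb-81 ranged from 2.41 to 1823 RPKM (median 57.5) in MS+ and from 0 to 184 RPKM (median 96.1) in MS-, with the highest value in embryo 4 and values of 5 RPKM or less in embryos 1, 2 and 5 of MS+. It did not exceed 7.45 RPKM in any library of the D and C series. fbxb-100 ranged from 0 to 1906 RPKM (median 54.8) in MS+ and from 6.92 to 286 RPKM (median 174) in MS-, again highest in embryo 4. fbxb-13 ranged from 7.95 to 745 RPKM (median 319) in MS+ and from 22.3 to 299.5 RPKM (median 106) in MS-, and was higher in MS+ in 5 of 7 embryos. The MS+ library of embryo 4, which carried both highest values, was one of those with a high sum of endoderm markers. The part of those cells in these values was not tested.

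By edgeR none of the 66 tested members passed the threshold between MS+ and MS-, where 0.349% of all genes tested passed. Over all genes 7.91% had an unadjusted p under 0.05, and among the members 2 did. These, named after their values were seen, were fbxb-65, with a log2 fold change of -3.95 (SE 1.31, adjusted p = 0.370), and fbxb-66, with 1.44 (SE 0.61, adjusted p = 0.57). DESeq2 on the same genes called 5 members, limma on log2(RPKM + 25) called 1 and limma on log2(RPKM + 1) called 4. Over all genes these tools called 11.2%, 2.2% and 6.97%. fbxb-65 ranged from 0 to 33.1 RPKM in MS+ and from 24.9 to 158 RPKM (median 108) in MS-, and was the member called by DESeq2 and both limma fits. Without embryo 2, whose sums were the lowest, edgeR called fbxb-60. There, 0.963% of all genes were called. The groups were apart for 7 members without embryo 2 (4.26% of all genes) and for 10 without embryo 6 (3.75% of all genes). Without MS+ embryo 3 or 4, with their endoderm markers, the edgeR count was 0 as well. The remaining cells in MS- also carried an epidermal marker sum of 207 to 682 RPKM, against 2.29 to 79.2 RPKM in MS+, and its part in these differences was not tested.

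In the D series the members spread in both directions. Of 74 members above 25 RPKM in either group, 18 (24.3%) had a ratio of 2 or more in D+ and 26 (35.1%) a ratio of 0.5 or less, against 12.2% and 25% of all genes above threshold. The groups overlapped for all 74 members, where 1.02% of all genes above threshold had groups apart. The highest ratios were those of fbxb-99 (7.22), fbxb-107 and fbxb-30, and fbxb-99 reached this through embryo 1 alone, with 1095 RPKM there and 6.57 RPKM or less in the other 6 D+ libraries. fbxb-30 likewise had 899 RPKM in D+ embryo 3 and 218 RPKM in embryo 7, against 10.1 RPKM or less in the remaining 5. Of the 74, 1 (fbxb-104) had a ratio of at least 2 and was higher in D+ in all 7 embryos, as were 0.218% of all genes above threshold. Another 5 (fbxb-60, fbxb-62, fbxb-66, fbxb-77 and fbxb-87) had a ratio of 0.5 or less and were lower in all 7, as were 8.06%. Among those with a ratio of 0.5 or less, these were 5 of 26 members and 481 of 1489 genes. Without embryo 4 there were 21 members at 2 or more and 26 at 0.5 or less, and without embryo 8 there were 20 and 29.

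fbxb-104 ranged from 13 to 1219 RPKM (median 648) in D+ and from 0 to 279.9 RPKM (median 100.1) in D-. The 4 high D+ libraries lay above every D- library, while embryos 2, 4 and 8 lay within the D- range. Its log2 fold change was 3.17 (SE 1.16, adjusted p = 0.579). fbxb-84 was higher in D+ in 5 of 7 embryos, from 7.16 to 1318 RPKM (median 35.9) in D+ and from 0 to 227 RPKM (median 57.4) in D-, with a log2 fold change of 3.43 (SE 1.33, adjusted p = 0.624). fbxb-66 went the other way. It ranged from 17.2 to 308 RPKM (median 45.6) in D+ and from 273 to 1568 RPKM (median 706) in D-, and was lower in D+ in all 7 embryos. The groups overlapped only through D+ embryos 2 and 4, at 283 and 308 RPKM, and D- embryo 1, at 273 RPKM. Its log2 fold change was -2.54 (SE 0.80, adjusted p = 0.389).

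By edgeR none of the 20 members tested passed the threshold between D+ and D-, where 0.197% of all genes passed. These 3 members had an unadjusted p under 0.05, as did 6.88% of all genes tested. DESeq2 called 5 members, fbxb-66, fbxb-104 and fbxb-84 among them, and each limma fit called 1, fbxb-66. Over all genes DESeq2 called 16.7%, limma on log2(RPKM + 25) 1.09% and limma on log2(RPKM + 1) 3.75%. Leaving out embryo 8, whose D+ library carried epidermal rather than muscle markers, left the edgeR count at 0.

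fbxb-66, on chromosome I, was higher in MS+ than in MS- in 4 of 7 embryos and higher in D+ than in D- in 0 of 7, and the difference between these effects passed its own test. In MS+ it ranged from 54.7 to 3109 RPKM (median 927), against 297 to 869.6 RPKM (median 611) in MS-. The difference of its effects, MS+ over MS- less D+ over D-, was 4.00 on the log2 scale (SE 0.94, edgeR adjusted p = 0.0274), and 1.06% of all 5304 genes tested had such a difference. It was 4.07 without embryo 8 of the D series (adjusted p = 0.0300). With the embryo as a block it was 3.72 (adjusted p = 0.139), past the threshold no longer. fbxb-66 was the one called among 77 members tested, while 22 had an unadjusted p under 0.05, as did 14.9% of all genes tested.

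**Figure D3:**
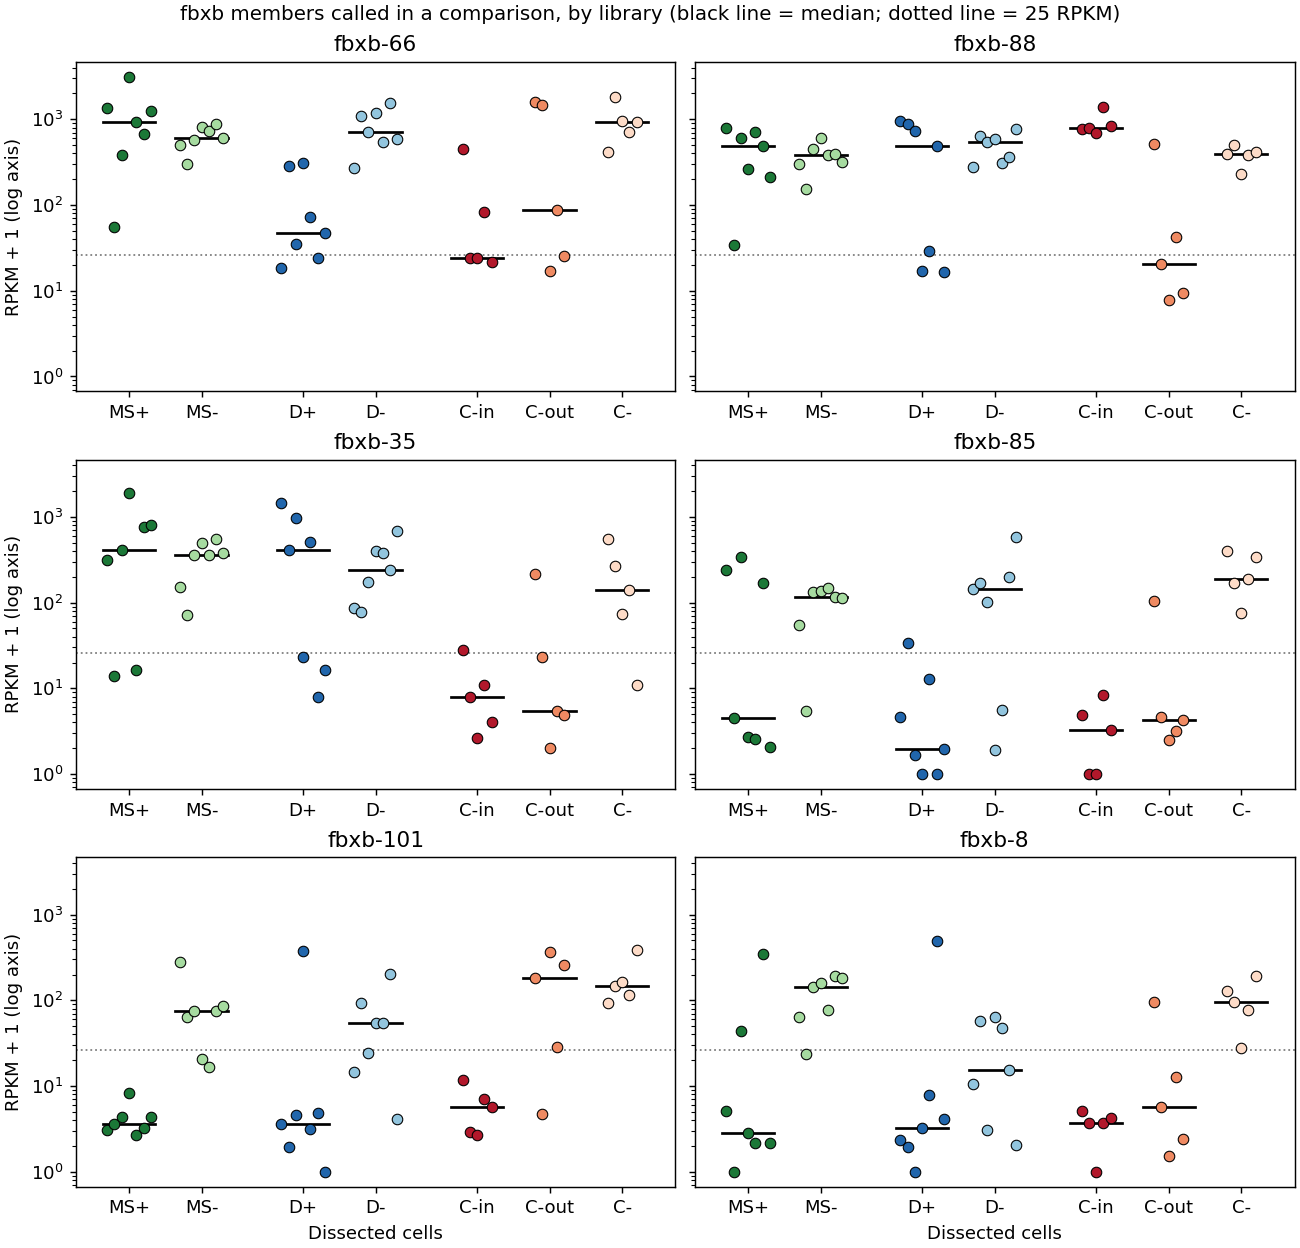
Level of the 6 fbxb members called in a comparison, by library, as RPKM + 1 on a log axis. Each point is one library, black lines are group medians and the dotted line marks 25 RPKM; fbxb-88 lies between 698 and 1400.0 RPKM in all C-in libraries, and fbxb-66 lies at 308 RPKM or less in all D+ libraries but at 273 RPKM or more in all D- libraries.

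The internalizing and the non-internalizing C cells had the same number of detected members but shared 10 of them, 47.6% of each list. Over all genes the shared ones were 69.7% of those in C-in and 63.4% of those in C-out. Without embryo 1, 11 members passed in C-in and 8 in C-out, and they shared 1 (9.09% of the C-in list and 12.5% of the C-out list). Over all genes 62.6% of the C-in list and 60.4% of the C-out list were then shared. Another 11 passed 25 RPKM in C-in but not C-out (fbxb-3, fbxb-13, fbxb-24, fbxb-42, fbxb-43, fbxb-44, fbxb-50, fbxb-59, fbxb-72, fbxb-78 and fbxb-104), and 11 in C-out but not C-in (fbxb-7, fbxb-15, fbxb-18, fbxb-35, fbxb-40, fbxb-54, fbxb-70, fbxb-87, fbxb-91, fbxb-100 and fbxb-101). Of 32 members above the threshold in either group, 16 (50.0%) had a ratio of 2 or more and 9 (28.1%) a ratio of 0.5 or less, against 28.9% and 29.5% of all genes above threshold. Without embryo 1, whose C-out library carried markers of other lineages, 9 of 18 members had a ratio of 2 or more and 7 a ratio of 0.5 or less.

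fbxb-88, on chromosome II, separated C-in from both other groups. It was at 762, 796, 698, 1400.0 and 845 RPKM in C-in embryos 1, 2, 4, 5 and 6, at 509, 19.6, 6.82, 41.2 and 8.39 RPKM in C-out of the same embryos, and at 396, 506, 226, 383 and 409 RPKM in C-. All 5 C-in values lay above all C-out and all C- values. It was the one member whose C-in and C-out values did not overlap, against 4.65% of all genes above threshold. The C-out value of embryo 1 was the highest of its group. Against C-out its log2 fold change was 3.01 (SE 1.09, edgeR adjusted p = 0.149), and 5.63 without embryo 1 (adjusted p = 0.00305). With the embryo as a block it was 5.07 (adjusted p = 0.0186), past the threshold.

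fbxb-43 had the highest ratio between C-in and C-out, 12.8, but from 2 embryos. It was at 722, 0.65, 0.84, 1286 and 0.79 RPKM in C-in and at 3.13, 5.28, 1.57, 25.3 and 6.87 RPKM in C-out. fbxb-13, with a ratio of 5.97, was at 0.66, 7.01, 369.7, 509 and 35.1 RPKM in C-in and at 33.8, 8.17, 1.55, 6.8 and 0 RPKM in C-out. fbxb-45 was at 60.2, 954, 735, 554 and 6.10 RPKM in C-in and at 315, 16, 4.53, 24.4 and 1.32 RPKM in C-out, and the C-in value was the higher one in 4 of 5 embryos. These 3 members were high in different sets of C-in embryos, and their groups overlapped. In the opposite direction, fbxb-101 was at 10.8, 1.94, 1.68, 6.09 and 4.76 RPKM in C-in and at 179, 3.77, 369.8, 27.6 and 254 RPKM in C-out, lower in C-in in all 5 embryos with a ratio of 0.157.

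Of the 113 members, 4 passed the filter for the test between C-in and C-out, none was called by edgeR, and 1, fbxb-88, had an unadjusted p under 0.05. Over all genes 5.66% were called and 14.4% had an unadjusted p under 0.05. DESeq2 called none (12.9% of all genes), and both limma fits called fbxb-88 (7.02% of all genes with 25 added and 7.34% with 1 added). Without embryo 1 and with the embryo as a block, where edgeR called fbxb-88, 9.22% and 5.48% of all genes were called.

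Against the remaining cells, C-in had 4 members past the threshold. fbxb-88 was higher, and 1.57% of all genes tested were called higher in C-in. fbxb-85, fbxb-101 and fbxb-8 were lower, and 4.79% of all genes were called lower. These are 4 of 14 members tested, 6 of which had an unadjusted p under 0.05, as did 17.5% of all genes tested.

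fbxb-88 had a log2 fold change of 1.89 against C- (SE 0.48, adjusted p = 0.0286). fbxb-85, on chromosome III, was at 3.85, 0, 0, 7.46 and 2.27 RPKM in C-in and at 402, 168, 75.5, 189 and 343 RPKM in C-, a log2 fold change of -5.78 (SE 1.43, adjusted p = 0.0267). It was also low in 4 of 5 C-out libraries, at 3.59, 1.5, 2.19 and 3.27 RPKM, with 103 RPKM in embryo 1, and in all D+ libraries, at 0 to 32.9 RPKM. fbxb-101, on chromosome I, was at 93.3, 147, 161, 114 and 390.3 RPKM in C-, a log2 fold change of -4.53 in C-in (SE 1.13, adjusted p = 0.0271). fbxb-101 was at 7.19 RPKM or less in all MS+ libraries and at 3.91 RPKM or less in 6 of 7 D+ libraries. D+ embryo 4, the library with germ line and epidermal markers, had 373.5 RPKM, and the part of those cells in it was not tested. Of the dissected groups C-out was the one with fbxb-101 above 25 RPKM in most embryos. fbxb-8, also on chromosome I, was at 4.17, 2.67, 0, 2.69 and 3.28 RPKM in C-in and at 127, 95.6, 26.7, 75.9 and 193 RPKM in C-, a log2 fold change of -4.64 (SE 1.22, adjusted p = 0.0340). The C-in and C- values of these 3 members did not overlap. Each had 0 C-in and 5 C- libraries above 25 RPKM, so it entered the test through C- alone. For such members the filter itself sets the groups apart, and the lack of overlap adds nothing to the calls.

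These calls were sensitive to the fit. DESeq2 called 6 members, the 4 above with fbxb-35 lower and fbxb-45 higher, where it called 25.1% of all genes. Median-ratio scaling kept 3 of the 4 and lost fbxb-8 (adjusted p = 0.0525). Both limma fits called 6 members lower in C-in, fbxb-85, fbxb-101 and fbxb-8 among them, and not fbxb-88 (11.3% of all genes with 25 added and 13% with 1 added), whereas without a filter on low values edgeR called no member and 0.841% of all genes. With the embryo as a block, where 0.728% of all genes were called, none of the 4 passed, with adjusted p = 0.117 for fbxb-88, 0.0712 for fbxb-85, 0.118 for fbxb-101 and 0.10 for fbxb-8, while the log2 fold changes stayed at 1.90, -6.64, -4.62 and -4.79. Leaving out embryo 4, whose C-in library carried epidermal markers, left no call, and leaving out embryo 5 left fbxb-85 and fbxb-101. Without embryo 1, where 9.25% of all genes were called, there were 6 calls, all lower in C-in: fbxb-7, fbxb-8, fbxb-37, fbxb-66, fbxb-85 and fbxb-101. Across these fits fbxb-85 and fbxb-101 were lost only without embryo 4 among the single embryos, fbxb-8 without embryos 2, 4, 5 or 6, and fbxb-88 without embryos 1, 4, 5 or 6.

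More members were low in C-in than passed the test. Of 54 members above 25 RPKM in C-in or C-, 33 (61.1%) had a ratio of 0.5 or less and 11 (20.4%) a ratio of 2 or more, where all genes above threshold had 33.7% and 15.7%. Of the 54, 16 had a ratio of 0.5 or less and were lower in C-in in all 5 embryos, as were 21.1% of all genes above threshold. Among those with a ratio of 0.5 or less, these were 16 of 33 members and 1237 of 1979 genes. The groups did not overlap for 7 of the 54, fbxb-88 higher and fbxb-8, fbxb-18, fbxb-54, fbxb-70, fbxb-85 and fbxb-101 lower, against 11.5% of all genes above threshold. Without embryo 1 they were apart for 13 members (20.8% of all genes) and without embryo 6 for 15 (20.4% of all genes). fbxb-18 was at 1.41, 3.39, 2.63, 8.20 and 3.32 RPKM in C-in and at 164, 272, 21.1, 147 and 165 RPKM in C-. fbxb-70 was at 0, 0, 0, 5.51 and 1.43 RPKM in C-in and at 192, 145, 189, 141 and 6.65 RPKM in C-. Without embryo 1, 7 of 44 members had a ratio of 2 or more. The highest ratios, of fbxb-10 (6.01), fbxb-59 and fbxb-104, were 0.604, 0.926 and 0.952 without C-in embryo 1, where fbxb-10 was at 1315 RPKM against 9.96 RPKM or less in the other C-in libraries. C- also held the markers of other lineages, with endoderm sums of 6.39 to 1187 RPKM and neural sums of 4.29 to 785 RPKM, against 5.87 to 68.9 and 7.58 to 27.0 RPKM in C-in. The part of those cells in the lower levels of C-in was not tested.

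C-out was low for much of the family. Of 50 members above 25 RPKM in C-out or C-, 27 (54.0%) had a ratio of 0.5 or less and none a ratio of 2 or more, against 23.6% and 11.4% of all genes above threshold. The groups overlapped for all 50, where 2.82% of all genes above threshold had groups apart, and without embryo 1 they were apart for 9 members and for 18.9% of all genes. None of the 22 members tested was called by edgeR, where 0% of all genes were called. By the same test 8.68% of all genes had an unadjusted p under 0.05, and 1 member did (fbxb-85, log2 fold change -3.24, SE 1.25, adjusted p = 0.512). DESeq2 called fbxb-85 (10.6% of all genes), and limma called no member and 0% of all genes with 25 added and 0.221% with 1 added. Without embryo 1 edgeR called 3 members lower in C-out, fbxb-7, fbxb-85 and fbxb-88, and 5.39% of all genes.

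**Figure D4:**
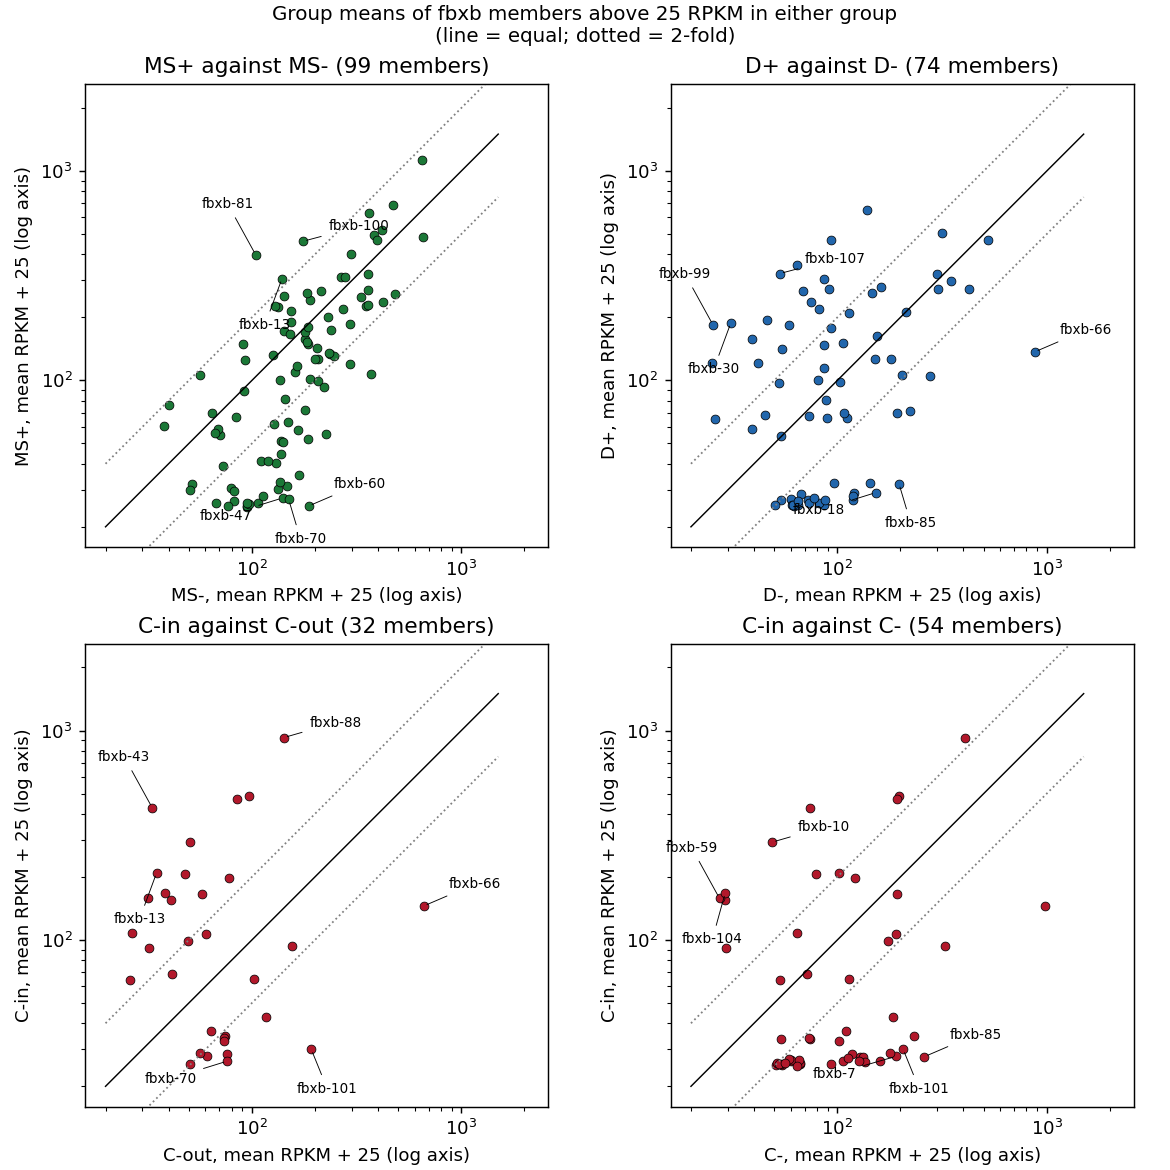
Mean level of fbxb members plus 25 RPKM in the cells of a lineage (vertical) and in the other group (horizontal), both on log axes, for members above 25 RPKM in either group. The solid line marks equal levels and the dotted lines 2-fold differences; the 3 highest and 3 lowest ratios are named, and in the C-in against C- panel 33 of 54 members lie on or below the lower dotted line.

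The effects in C-in and in MS+ differed for 2 of 89 members tested, where 1.35% of all genes did. For fbxb-35, on chromosome II, the effect in C-in (over C-) less that in MS+ (over MS-) was -5.56 on the log2 scale (SE 1.44, edgeR adjusted p = 0.0451). fbxb-35 ranged from 13.1 to 1897 RPKM (median 410.1) in MS+ and from 71.2 to 548 RPKM (median 358) in MS-, whereas it was at 27.1, 6.83, 1.61, 10.0 and 3.04 RPKM in C-in and at 553, 265, 73.1, 139 and 9.87 RPKM in C-. For fbxb-66 the difference was -4.14 (SE 1.10, adjusted p = 0.0497). fbxb-66 was at 453, 23.0, 23.1, 81.9 and 20.4 RPKM in C-in and at 412, 1801, 945, 717 and 926 RPKM in C-, and the values overlapped through embryo 1. With the embryo as a block the differences were -4.05 for fbxb-35 (adjusted p = 0.299) and -4.57 for fbxb-66 (adjusted p = 0.0897), past the threshold for neither. With median-ratio scaling they were -6.10 (adjusted p = 0.0559) and -4.76 (adjusted p = 0.0571). Among 54 members tested for a difference between C-in and D+ effects, none was called by edgeR, where 0% of all genes were called. An unadjusted p under 0.05 was found for 14 of the members and for 17.8% of all genes tested. fbxb-66 was low in both of these lineages, with a difference of 0.34 (SE 1.23).

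The scaling of the libraries moves every fold change here. With the scaling used, the median log2 fold change of all tested genes was 0.33 for MS, 0.53 for D, 0.25 for C-in over C-out, 0.69 for C-in over C- and -0.08 for C-out over C-, and with median-ratio scaling it was 0.92, 1.42, 0.20, 1.40 and 0.77. Relative to the median gene, fbxb-88 was at 1.20 and fbxb-85, fbxb-101 and fbxb-8 at -6.47, -5.22 and -5.33 in C-in over C-, and fbxb-66 was at 1.11 in MS+ over MS- and at -3.06 in D+ over D-. For all 15 fold changes of single members followed through the alternative fits, the side of the median gene stayed the same in every fit that used all embryos.

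Neighbouring members on the chromosomes were compared because many fbxb genes lie side by side. By the order of protein-coding genes in WBcel235, 52 members lay in 18 runs of 2 to 4 members with no other protein-coding gene between them. The run of fbxb-43, fbxb-42 and fbxb-44 on chromosome II had mean summed levels of 525 RPKM for C-in, 11.4 RPKM for C-out and 117 RPKM in C-. The run of fbxb-81, fbxb-82 and fbxb-83 on chromosome III summed to 474 RPKM in MS+ and 361 RPKM in MS-, against 103 RPKM in D+, 18.7 RPKM in D- and 7.26 RPKM or less in the C series. The run of fbxb-93, fbxb-56, fbxb-101 and fbxb-100 on chromosome I held 2 members of unlike pattern, fbxb-101 being low in MS+ and fbxb-100 at up to 1906 RPKM there. Over the 43 libraries, after removing group means, the log2 levels of the detected members had a median Pearson correlation of 0.38 in 31 adjacent pairs, 0.26 in 1775 other pairs on the same chromosome and 0.21 in 3144 pairs on different chromosomes. All pairs share libraries and depth, and similar neighbours may share reads, since the rule for reads with several matches is not known.

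The study listed the homology groups of genes that it found enriched in internalizing cells, using these samples, and 9 of the 113 members belong to the listed groups (fbxb-10, fbxb-11, fbxb-12, fbxb-13, fbxb-37, fbxb-38, fbxb-52, fbxb-53 and fbxb-102). The study chose these groups by the summed profile of each group and by enrichment over time, the E lineage included. The tests here compare single members between cells of the same stage, so they do not repeat that selection. None of the 9 was called by edgeR with all embryos, though fbxb-11 and fbxb-37 were called in some alternative fits, and none of the 6 called members is among them. fbxb-13, which had one of the 3 highest ratios in MS+ and in C-in against C-out, and fbxb-10, highest in C-in against C-, were the members of these groups among the extreme ratios.

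The other parts of the ligase had no edgeR call, but the other tools called some of them. Of the SCF core list (cul-1, rbx-1 and the 21 skr genes), between 8 and 15 of 23 genes were tested in each comparison and none passed. The same held for the neddylation and COP9 signalosome list, which covers the modification that activates cullins and its removal (6 to 12 of 12 genes tested), and for the other F-box genes lin-23, sel-10, fsn-1, mec-15, dre-1, mfb-1, prom-1 and fog-2 (2 to 5 of 8 tested). Over all genes, 6.88% to 17.5% had an unadjusted p under 0.05 by edgeR in each of the 5 comparisons. DESeq2 called 10.6% to 25.1% of all genes, limma 0% to 11.3% with 25 added and 0.221% to 13% with 1 added. The counts below are to be read beside these shares. Over the 5 comparisons, 9 of 59 tests of the SCF core had an unadjusted p under 0.05 by edgeR, and DESeq2 called 13 and each limma fit 2. For neddylation and the signalosome 5 of 51 tests had such a p, and DESeq2 called 7, limma on log2(RPKM + 25) 0 and limma on log2(RPKM + 1) 1. For the other F-box genes 2 of 18 tests had such a p, and the calls were 2, 0 and 2 in the same order. rbx-1, the RING subunit, averaged 661 ± 402 RPKM in MS+ and 318 ± 173 RPKM in MS- (SD, n = 7 each), and was above 25 RPKM in all 14 of these libraries. In C-out it averaged 44.4 ± 75.6 RPKM, against 357 ± 176 RPKM in C- (SD, n = 5 each). skr-1, the main SKP1 orthologue, was above 25 RPKM in 42 of the 43 libraries. Of the fbxa genes at most 3 were tested in a comparison and edgeR called none, with 1 of 7 tests at an unadjusted p under 0.05, while DESeq2 called 2 and each limma fit 1. Of the fbxc genes 6 to 16 were tested, and 1 was called in MS+ (lower), 1 in C-in against C-out (higher) and 3 in C-in against C- (2 higher, 1 lower). Over all genes edgeR called 0.349% in MS+ and 5.66% in C-in against C-out, and in C-in against C- 1.57% higher and 4.79% lower.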

How the data were processed

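Libraries had been made from lysed cells of single embryos with the SMARTer Ultra Low and Nextera XT kits, without RNA extraction. The authors deposited, for each library, a count of reads per gene and its RPKM. The submitters' processing notes name the build ce10 and bedtools, and for the aligner, the rule on reads with several matches and the strand rule the entry is: not given in the sources used here. Each RPKM value equalled count over length and total within 0.02 RPKM or 0.5% for 100% of values. The 43 libraries of 19 accepted embryos were used, and 8 libraries of 3 embryos that the study rejected for spike-in content were left out. No 2 libraries were identical.

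Members and lists were chosen with earlier results of these data known. Members were named where they were called, among the 12 highest group means, among the 3 highest or 3 lowest ratios of a comparison, or where groups did not overlap. Counts were tested with edgeR 4.0.16 in R 4.3.3 (TMM scaling, quasi-likelihood test, Benjamini-Hochberg adjustment over all genes tested). Genes entered if the number of libraries above 25 RPKM reached the size of the smaller group. The procedure was run on simulated counts of independent libraries with known fold changes. Libraries sharing an embryo, and levels nearly absent in most libraries but high in a few, were not simulated. The simulation therefore does not show how the procedure behaves on such members. Alternatives were DESeq2 1.42.0, limma 3.58.1 on log2(RPKM + 25) and log2(RPKM + 1), median-ratio scaling, no filter, the embryo as a block and leaving out each embryo. Same-numbered libraries of a series came from the same embryo, as the series design states. The mean correlation of their deviations from group means over 6840 genes was 0.0332 in the MS, 0.0243 in the D and 0.0291 in the C series. Chromosomes and neighbours came from WBcel235, and no coordinates were used. Python 3.11.15, pandas 2.3.3 and matplotlib 3.10.9 were used for summaries and plots.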

Additional observations from a re-analysis of the deposited data

Results flagged for a closer look

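Dixon's test at the 95% level was run on 56 groups of values and gave 12 outliers, single libraries far from the others of their group. Its error rate of 1 in 20 holds for normally distributed values. Levels high in some libraries and nearly absent in others are not of that kind, so the marks are a description only. C-out embryo 1 was far above the other C-out libraries in its summed fbxb level (6907 RPKM) and its number of members above 25 RPKM (45), and also in fbxb-88 (509 RPKM), fbxb-35 (214 RPKM), fbxb-85 (103 RPKM) and fbxb-8 (95.2 RPKM). The same embryo stood apart in C-in with 26 members above 25 RPKM. In C-in embryo 5, fbxb-88 was at 1400.0 RPKM. fbxb-101 stood apart in D+ embryo 4, at 373.5 RPKM, a library whose germ line and epidermal lists stood at 1000 and 262 RPKM. It was also marked in MS+ embryo 4, at 7.19 RPKM. That value came from 8 counts, against 3 to 6 in the other MS+ libraries, and lay below the threshold of 25 RPKM, so little rests on it. fbxb-8 stood apart in MS+ embryo 6, at 343 RPKM, and in D+ embryo 7, at 488 RPKM. The cause of these values was not tested.

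Effects that differed between lineages by a test of the difference were those of fbxb-66 between MS and D (4.00 on the log2 scale), of fbxb-66 between C-in and MS (-4.14) and of fbxb-35 between C-in and MS (-5.56). Each lost its call with the embryo as a block.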

How the results depend on the processing

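The number of members called by edgeR depended on the fit, as did the number of all genes called. In the 5 comparisons DESeq2 called 10.6% to 25.1% of all genes. The limma fits called 0% to 11.3% with 25 added and 0.221% to 13% with 1 added. Without a filter the share of all genes was computed for C-in against C- only (0.841%). Counts given without such a share cannot be read as particular to the family. Between MS+ and MS-, 0 became 5 with DESeq2, 4 with limma on log2(RPKM + 1), 1 on log2(RPKM + 25), 5 without a filter and 0 to 1 when embryos were left out in turn. Between D+ and D-, 0 became 5, 1, 1 and 3 under the same 4 settings, and stayed 0 when embryos were left out. Between C-in and C-out, 0 became 1 with each limma fit, 1 without a filter, 1 with the embryo as a block and 0 to 1 with embryos left out. Between C-in and C-, 4 became 6 with DESeq2, 6 with each limma fit, 3 with median-ratio scaling, 0 without a filter, 0 with the block and 0 to 6 with embryos left out. Between C-out and C-, 0 became 1 with DESeq2 and 0 to 3 with embryos left out. The block left 0 members with a difference of MS and D effects (1 without it) and 0 with a difference of C-in and MS effects (2 without it), and median-ratio scaling also left 0 of the last. Of 147 alternative values for 15 member fold changes, 103 kept direction and side of the threshold, 26 lost a call, 18 gained one and 0 reversed. The cause was not tested.

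With the group median in place of the mean, members above 25 RPKM numbered 22 for MS+, 12 for D+, 33 for D-, 4 for C-in, 4 for C-out and 30 for C-. In C-out 50 passed in any library and 41 passed 10 RPKM. With embryos left out, C-in had 11 to 21 and C-out 8 to 29. Members whose groups did not overlap numbered 4 to 10 for MS, 0 to 1 for D, 1 to 2 for C-in against C-out, 7 to 15 for C-in against C- and 0 to 9 for C-out against C-. The share of all genes rose as well. Without embryo 6 it went from 1.93% to 3.75% for MS and from 11.5% to 20.4% for C-in against C-. Without embryo 1 it went from 2.82% to 18.9% for C-out against C-. For D and for C-in against C-out it was not computed with embryos left out. In alternatives chosen after seeing the data, which left out embryos with markers against their labels, members with a ratio of 2 or more numbered 3 to 8 for MS, 9 to 16 for C-in against C-out and 7 to 10 for C-in against C-. For a member of median length the depth did not limit detection at 25 RPKM, but 5 to 7 embryos a group, levels that were high in few embryos, and unknown treatment of reads shared by similar members limit all of these values.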

Other observations

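Among the 8 libraries of rejected embryos, the summed fbxb level was 8542 RPKM in D+ embryo 5 and 8168 RPKM in D- embryo 5. It was 7056 RPKM for C-in, 1161 RPKM for C-out and 3780 RPKM for C- of embryo 3, and 4237, 1759 and 3877 RPKM for C-in, C-out and C- of embryo 7. Members above 25 RPKM numbered 57 in D+ and 46 in D- of embryo 5, 60 for C-in, 11 for C-out and 32 for C- of embryo 3, and 33 for C-in, 9 for C-out and 10 for C- of embryo 7. The D+ library of embryo 5 held 52475 counts, and the C-in libraries of embryos 3 and 7 held 103134 and 185530 counts, below every accepted library.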
